A study of Mus musculus with 4 samples.

Results

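The HoxB cluster is the group of homeobox genes Hoxb1 to Hoxb9 and Hoxb13 on mouse chromosome 11. It was followed here in RNA from the posterior part of mouse embryos at 5 to 6 somites. Its members were taken as all non-control array probes that carry 1 of the 10 gene names in the scanner files, which gave 15 probes of the 41174 on the array. All 10 genes were represented, of 27573 gene or transcript names in all, 5 of them by 2 probes and 5 by 1 probe. The direction of the ratios follows Cdx4 and no HoxB gene, since each array was turned so that its Cdx4 ratio was negative.

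Embryos labelled Cdx2+/-Cdx4-/- were compared with embryos labelled wildtype, and the labels give no strain. Both groups were cut at the last somite boundary, that is, at the same landmark. Whether the tissue of the 2 groups matched beyond this was not tested. Each RNA came from a pool of 10 embryos per genotype. The 2 RNAs were labelled with Cy3 and Cy5 and put together on every one of 4 Agilent mouse arrays of 1 slide, titled replicate 1, its dye swap, replicate 2 and its dye swap (arrays 1 to 4 below). The labels do not state whether the 2 replicates are separate pools. The p-values below therefore rest on the spread among hybridisations alone, and this may be technical. In pooled tissue, fewer cells of a type and less RNA per cell cannot be told apart.

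Hox genes encode transcription factors that give cells their position along the head-to-tail axis. Within a cluster they are switched on in an order that follows their place on the chromosome, from the 3′ end (group 1, anterior) to the 5′ end (group 13, posterior), a property called colinearity. The caudal-type factors Cdx1, Cdx2 and Cdx4 act in the posterior growth zone of the embryo and are known to bind regulatory DNA of Hox genes, while retinoic acid is known to act on the 3′ Hox genes. HoxB lacks members of groups 10, 11 and 12, and Hoxb13 lies apart from the rest. In the coordinates of the scanner files (mm8) the probes ran from 96183286, at the end of the Hoxb1 probe, down to 96012144, at the start of the Hoxb13 probe, a span of 171 kb. Hoxb9 lay 90.7 and 91.4 kb from Hoxb1 by its 2 probes and Hoxb13 lay 171.1 kb from it.

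The upstream sequences available for the cluster are shown first because Cdx and Pbx-Hox factors are known to act on HoxB regulatory DNA. RefSeq promoters (GRCm38.p6) matched 3 of the 10 genes, Hoxb1, Hoxb4 and Hoxb8, and the 250 bases before each start were searched on both strands. The motifs, chosen with earlier results of these data known, were the Cdx-type letters TTTATG and TTTATTG and the Pbx-Hox letters TGATNNAT. Matches are in capitals in the 2 sequences that hold any, Hoxb1 at chr11:96365508-96365757 and Hoxb8 at chr11:96281655-96281904, both on the plus strand.
Hoxb1: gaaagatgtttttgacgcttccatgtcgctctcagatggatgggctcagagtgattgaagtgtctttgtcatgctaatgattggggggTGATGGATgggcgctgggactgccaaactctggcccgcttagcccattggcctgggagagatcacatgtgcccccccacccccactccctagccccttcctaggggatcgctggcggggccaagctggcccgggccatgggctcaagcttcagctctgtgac
Hoxb8: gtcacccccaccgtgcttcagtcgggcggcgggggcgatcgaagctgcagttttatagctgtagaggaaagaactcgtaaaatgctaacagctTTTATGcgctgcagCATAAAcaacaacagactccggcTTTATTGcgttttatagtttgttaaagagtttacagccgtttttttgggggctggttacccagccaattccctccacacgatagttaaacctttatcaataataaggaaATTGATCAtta
The Hoxb8 sequence held 2 matches to TTTATG, 1 to TTTATTG and 1 to TGATNNAT, with no overlap between them. Hoxb1 held 1 match to TGATNNAT and none to the Cdx-type letters. In the mouse, repeats of this Pbx-Hox kind upstream of Hoxb1 are known to carry its autoregulation in rhombomere 4. The Hoxb4 window held none of the 3. Of 32851 promoter windows of the same length, 10.8% held TTTATG, 4.20% held TTTATTG and 7.68% held TGATNNAT. A match is a description of the letters and not evidence of binding.

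The direction of the ratios was examined before the HoxB values. Cdx4, the gene removed in the mutant, gave -2.59, -2.11, 2.82 and 2.42 on arrays 1 to 4 as log2 of Cy5 over Cy3. By the labels, the mutant RNA was in Cy5 on arrays 1 and 3 and in Cy3 on arrays 2 and 4. Cdx4 was therefore lower in the RNA labelled mutant on arrays 1 and 4 and higher in it on arrays 2 and 3. Over all 41174 probes, arrays 1 and 2, which the labels describe as dye swaps of each other, correlated at 0.75, while arrays 1 and 3, of the same labelled orientation, correlated at -0.36. The labels thus do not settle the direction. The RNA with the lower Cdx4 signal on an array is called Cdx4-low and the other Cdx4-high, and every ratio is Cdx4-low over Cdx4-high. By the labels of arrays 1 and 4 this is mutant over wildtype, and by those of arrays 2 and 3 it is the reverse, so that each sign and each higher or lower below would turn. The sources used here do not say which part of Cdx4 was removed, so its probe checks the labels only as far as the transcript is lost.

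The members were read against the array as a whole. Probes entered the test when either RNA lay well above background on each of the 4 arrays, which held for 21859 probes. The 2 arrays of a labelled replicate were averaged and the 2 values were fitted with limma, with Benjamini-Hochberg adjustment over all tested probes and a threshold of 0.05. By this fit 5.67% of tested probes were called, 2.32% as higher (507) and 3.35% as lower (733). With the dyes balanced within each pair instead (arrays 1 and 3, and arrays 2 and 4), 37.5% were called, 4245 as higher and 3942 as lower. That fit gave an infinite prior degrees of freedom and 1 standard error of 0.05 for all probes, so its calls are read here as the looser of the 2. Of the array's spots, 50.6% to 56.4% were well above background in Cy3 and 58.9% to 64.9% in Cy5. Of the 24 HoxB spots on each array, 0 were marked as outliers and 0 were saturated.

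Of the 10 HoxB genes, 9 were tested, and 2 of these were higher in Cdx4-low RNA while 0 were lower. With the sign turned, by the labels of arrays 2 and 3, the counts are 0 higher and 2 lower. The 2 genes were Hoxb1 and Hoxb2, the neighbours at the 3′ end of the cluster. They make up 22.2% of the genes tested. Counted by probes, 2 of the 13 tested HoxB probes were called as higher, beside 2.32% of all tested probes. Of the 13 tested probes, 3 had an unadjusted p under 0.05, all 3 with a higher signal in Cdx4-low RNA, and 10 had a 95% interval that spanned 0. The median log2 ratio of the 9 genes was -0.03, beside 0.01 over all tested probes. With the dyes balanced, 2 genes were higher and 2 lower (44.4% of the genes tested), with Hoxb4 and Hoxb6 as the lower ones. By probes, 3 of 13 were higher and 2 lower, in a fit that called 37.5% of all tested probes. On all 4 arrays 5 of the 13 probes kept 1 sign, as did 42.0% of all tested probes. Intensities of Cdx4-low and Cdx4-high RNA did not overlap over the 4 arrays for 3 of the 13 probes, beside 24.8% of all tested probes. The members' shares in one sign and without overlap were thus close to those of the array.

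**Figure D1:**
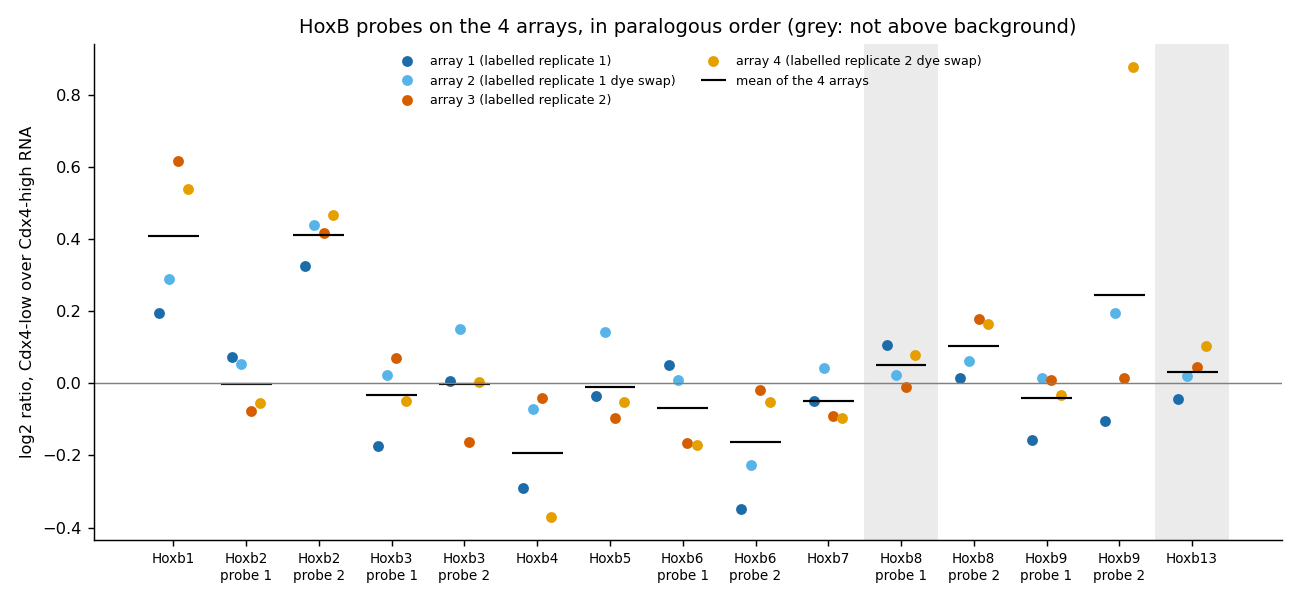
Log2 ratio of Cdx4-low over Cdx4-high RNA (vertical axis) for each of the 15 HoxB probes, ordered by paralogous group from Hoxb1 at the left to Hoxb13 at the right. Points are the 4 arrays and black bars their mean. Hoxb1 and probe 2 of Hoxb2 lie above 0 on all 4 arrays, most other probes lie within 0.2 of 0, and probe 2 of Hoxb9 has 1 array at 0.88.

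Hoxb1 specifies rhombomere 4 of the hindbrain and is the first HoxB gene to be switched on in the primitive streak. Its probe (A_51_P485014, NM_008266, chr11:96183226-96183286 on mm8) had normalised intensities of 1968, 1847, 2120.2 and 2108 units in Cdx4-low RNA on arrays 1 to 4. Cdx4-high RNA gave 1718, 1512, 1383 and 1450.1 units on the same arrays. All 4 Cdx4-low values lay above all 4 Cdx4-high values. The aligned log2 ratios were 0.20, 0.29, 0.62 and 0.54, so the lower 2 came from the arrays of labelled replicate 1. The fitted ratio was 0.41 ± 0.10 (log2, moderated SE, n = 2 pairs, adjusted p = 0.0219), a 1.33-fold higher level with a 95% interval of 0.20 to 0.62 on the log2 scale.

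The Hoxb1 probe was printed 10 times on each array, which gives a measure of the error within an array. Over the 10 spots the ratios ran from 0.12 to 0.37 on array 1 and from 0.20 to 0.44 on array 2. They ran from 0.48 to 0.72 on array 3 and from 0.38 to 0.62 on array 4. All 40 spots were above 0, and the SD within an array was 0.06 to 0.08. The 2 labelled replicates differed by 0.34, which is several times the spread of the spots. Arrays 1 and 2 carried the Cdx4-low RNA in Cy5 and arrays 3 and 4 carried it in Cy3, so replicate and dye cannot be told apart in this difference. Paired with the dyes balanced, the 2 values were 0.41 and 0.41 (adjusted p = 9.2e-14 in limma).

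**Figure D2:**
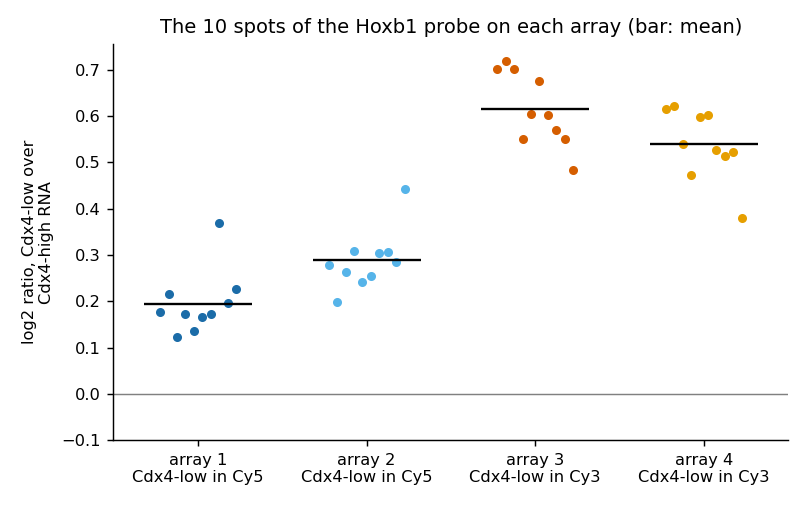
Log2 ratio of Cdx4-low over Cdx4-high RNA (vertical axis) of the 10 spots of the Hoxb1 probe on each of the 4 arrays, with the dye of the Cdx4-low RNA under each. Black bars are means over spots, at 0.20, 0.29, 0.62 and 0.54. All spots lie above 0, and those of arrays 3 and 4 lie higher, with 1 spot of array 4 at 0.38 inside the range of array 2.

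Hoxb2, a gene of the hindbrain and of facial motor neurons that Hoxb1 is known to activate in rhombomere 4, had 2 probes with different results. Its probe 2 (A_52_P15300, NM_134032, chr11:96169898-96169957) gave 3979, 4291, 4184 and 4439.6 units in Cdx4-low RNA, against 3177, 3163, 3136 and 3213 units in Cdx4-high RNA. The 2 RNAs did not overlap. Its log2 ratios of 0.32, 0.44, 0.42 and 0.47 were also among the least spread of the cluster (SD 0.06 over 4 arrays), and the 2 labelled replicates gave 0.38 and 0.44. The fitted ratio was 0.41 ± 0.09 (log2, moderated SE, n = 2 pairs, adjusted p = 0.013), 1.33-fold higher in Cdx4-low RNA, with a 95% interval of 0.21 to 0.61.

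Probe 1 of Hoxb2 (A_51_P257789, AK036636, chr11:96166636-96166695) lay 3.26 kb away and had log2 ratios of 0.07, 0.05, -0.08 and -0.06. Its intensities were 269.6 to 299 units in Cdx4-low RNA and 270.2 to 301 units in Cdx4-high RNA, which overlapped. The fitted ratio was -0.0011 ± 0.10 (adjusted p = 0.998). This was the only HoxB probe whose coordinates were listed in descending order in the scanner files. The other 14 were ascending. It may therefore read the opposite strand, and which transcript it detects was not tested. With the mean of a gene's probes in place of its brightest probe, the ratio of Hoxb2 was 0.21 and its call ended (adjusted p = 0.191).

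Both calls depended on the arrays and on the processing. Each held in 9 of 18 alternative settings that kept the alignment, and both ratios stayed above 0 in all 18. For Hoxb1 the adjusted p was 0.122 without array 1, 0.106 without array 2 and 0.0675 without array 3, at ratios of 0.43, 0.39 and 0.39. For Hoxb2 it was 0.0839 without array 1 and 0.0595 without array 2, at 0.44 and 0.38.

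Hoxb3, which patterns rhombomeres 5 and 6 and the pharyngeal organs, was measured by 2 probes 1.89 kb apart. Probe 1 (A_51_P460643) had 543 to 611 units in Cdx4-low RNA and 546 to 688 units in Cdx4-high RNA. Probe 2 (A_52_P312467) had 534 to 604 units in Cdx4-low RNA and 532 to 632 units in Cdx4-high RNA. The RNAs overlapped on both, and the fitted ratios were -0.03 ± 0.09 (adjusted p = 0.931) and -0.00066 ± 0.10 (adjusted p = 0.999). The 95% interval of probe 1 ran from -0.23 to 0.17, so a change of the size seen in Hoxb1 lay outside it.

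Hoxb4 is active up to the border of rhombomeres 6 and 7 and shapes the second cervical vertebra. Its single probe (A_52_P565957, NM_010459, chr11:96136297-96136356) had 365, 353, 379 and 283 units in Cdx4-low RNA, against 447, 371, 390.5 and 367 units in Cdx4-high RNA. On each array the Cdx4-low value was the lower of the 2, although the groups overlapped across arrays. The log2 ratios were -0.29, -0.07, -0.04 and -0.37, with the larger values on arrays 1 and 4. The fitted ratio was -0.19 ± 0.09 (log2, n = 2 pairs) and missed the threshold (adjusted p = 0.303). With the dyes balanced, the standard error shared by all probes gave an adjusted p of 0.00103 for the same ratio.

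Hoxb5 and Hoxb7, which act in the cervical and thoracic axis, had 1 probe each. Hoxb5 (A_51_P436342) gave 679 to 742 units in Cdx4-low RNA and 666 to 768 units in Cdx4-high RNA, with a ratio of -0.01 ± 0.10 (adjusted p = 0.984). Hoxb7 (A_52_P194971) gave 2266 to 2498 units in Cdx4-low RNA and 2343 to 2578 units in Cdx4-high RNA, with a ratio of -0.05 ± 0.09 (adjusted p = 0.885). Neither gene had 1 sign on all 4 arrays. Their 95% intervals ran from -0.21 to 0.19 and from -0.25 to 0.15.

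Hoxb6, a thoracic gene also active in lateral plate mesoderm, had 2 probes 2.28 kb apart, and the values of the brighter one leaned lower in Cdx4-low RNA. That probe (A_51_P232207, NM_008269, chr11:96117339-96117398) gave 6133, 6808, 7163 and 7719 units in Cdx4-low RNA, against 7815, 7968, 7249 and 7998 units in Cdx4-high RNA. Its log2 ratios of -0.35, -0.23, -0.02 and -0.05 were all below 0, and those of arrays 3 and 4 were near it. The labelled replicates thus stood at -0.29 and -0.03. The fitted ratio was -0.16 ± 0.10 (adjusted p = 0.444), or adjusted p = 0.00725 with the dyes balanced. Probe 1 (A_52_P648750, X56459) had ratios of 0.05, 0.01, -0.17 and -0.17, that is, below 0 on the 2 arrays where the brighter probe was near 0. Its fitted ratio was -0.07 ± 0.10 (adjusted p = 0.82), and it did not pass with the dyes balanced (adjusted p = 0.313).

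Hoxb8, a gene of the posterior growth zone and spinal cord whose regulatory DNA is known to bind Cdx proteins, gave weak signals. Probe 2 (A_51_P402686, NM_010461, chr11:96101232-96101291) had 208, 216, 216 and 218 units in Cdx4-low RNA, against 206, 207, 191 and 195 units in Cdx4-high RNA. The 2 RNAs did not overlap, but the lowest Cdx4-low and the highest Cdx4-high value were 208 and 207 units. The log2 ratios were 0.02, 0.06, 0.18 and 0.16 and the fitted ratio was 0.10 ± 0.10 (adjusted p = 0.669). Only with arrays 1 and 4 as 1 pair and arrays 2 and 3 as the other was it called (adjusted p = 0.0189). Probe 1 (A_52_P312043), 2.56 kb away, was well above background on 1 array in Cdx4-low RNA and on 0 in Cdx4-high RNA, and was not tested. The upstream matches printed above therefore stand beside a gene with no call in the fit by labelled replicate.

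Hoxb9, which acts in thoracic and more posterior segments, was the most posterior member tested, and its 2 probes lay 683 bases apart. Probe 1 (A_52_P98462), the brighter, gave 4205, 4878, 4722 and 4771 units in Cdx4-low RNA, against 4685, 4827, 4692 and 4876 units in Cdx4-high RNA. Its ratios were -0.16, 0.02, 0.01 and -0.03, and the fitted ratio was -0.04 ± 0.09 (adjusted p = 0.906). Probe 2 (A_52_P973575, chr11:96092524-96092583) gave 760.0, 846, 743 and 1555 units in Cdx4-low RNA, against 817, 739, 735 and 845 units in Cdx4-high RNA. The value of array 4 stood apart in Cdx4-low RNA only, and the log2 ratios were -0.10, 0.20, 0.02 and 0.88. Their mean of 0.25 (adjusted p = 0.222) was 0.04 without array 4. With the dyes balanced this probe was called at an adjusted p of 1.75e-05, while the 2 pair means were -0.04 and 0.54.

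Hoxb13, a brake on tail growth at later stages, was not well above background in either RNA. It was above background on 0 arrays in Cdx4-low RNA and on 1 in Cdx4-high RNA. The measured intensities were 157 to 177 units in Cdx4-low RNA and 153 to 165 units in Cdx4-high RNA. No ratio was tested for it.

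**Figure D3:**
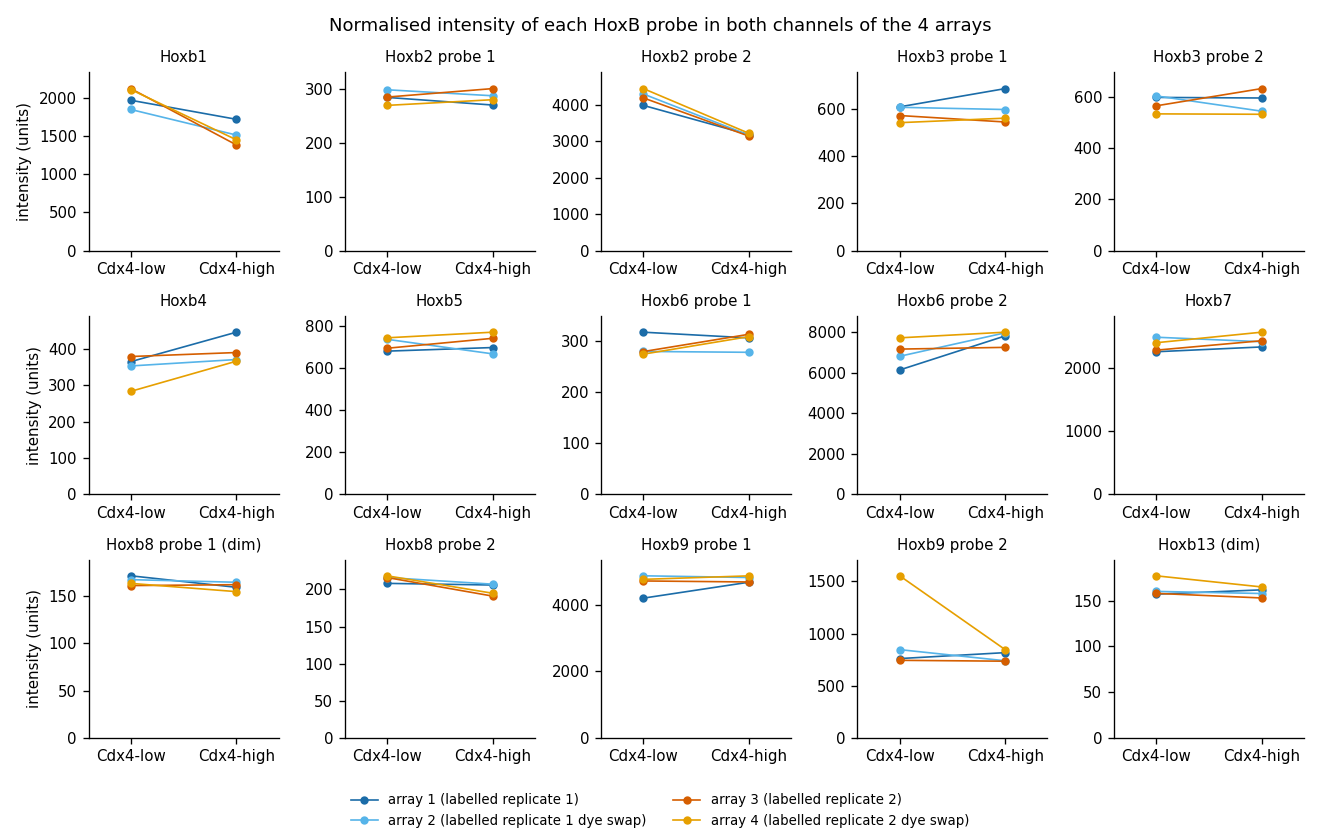
Normalised intensity (units, vertical axes from 0) of the 15 HoxB probes in Cdx4-low RNA, at the left of each panel, and in Cdx4-high RNA, at the right. Lines join the 2 RNAs of 1 array. Lines fall to the right on all 4 arrays for Hoxb1, probe 2 of Hoxb2 and, by less, probe 2 of Hoxb8, and the 1555 units of array 4 stand out in probe 2 of Hoxb9.

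Probes of 1 gene share a target and are not replicates, and the 5 genes with 2 probes showed how far they can differ. The mean ratios of the 2 probes differed by 0.03 in Hoxb3, 0.05 in Hoxb8, 0.29 in Hoxb9 and 0.41 in Hoxb2. In Hoxb6 the probe nearer to Hoxb1 was lower, by a difference of -0.09. The median difference between labelled replicates was 0.13 for the 13 HoxB probes and 0.13 for all tested probes. With the dyes balanced the median difference between pairs was 0.04 for HoxB and 0.07 for all tested probes.

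**Figure D4:**
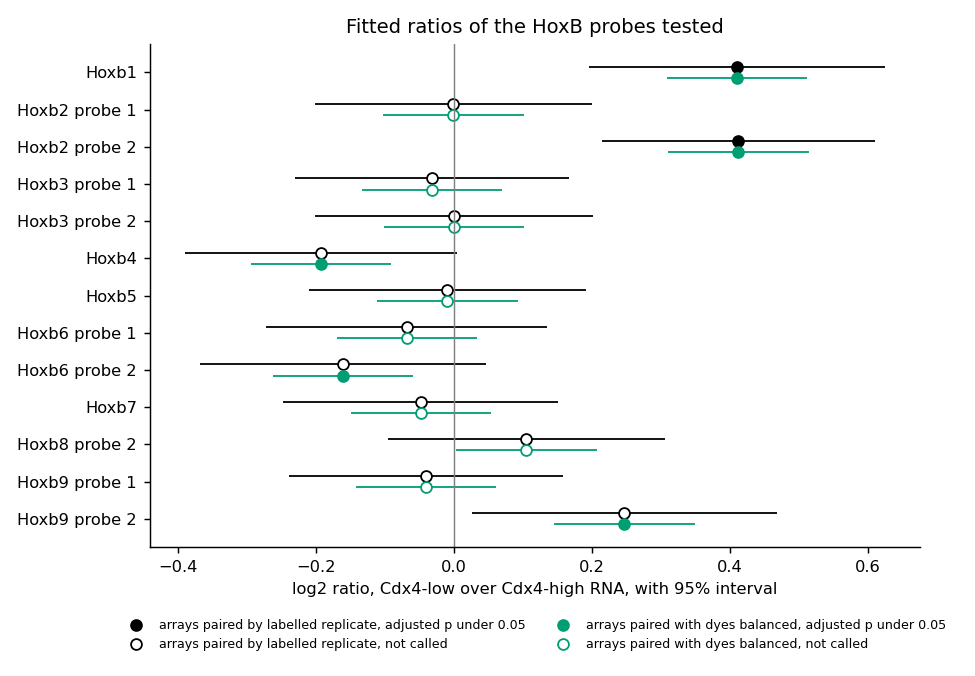
Fitted log2 ratio of Cdx4-low over Cdx4-high RNA (horizontal axis) with 95% intervals for the 13 tested HoxB probes, with arrays paired by labelled replicate (black) and with dyes balanced (green). Filled points have an adjusted p under 0.05. Hoxb1 and probe 2 of Hoxb2 are filled in both colours, while Hoxb4, probe 2 of Hoxb6 and probe 2 of Hoxb9 are filled in green only.

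In cluster order, and by the brightest probe of each gene, the aligned ratios of the 9 tested genes were highest in groups 1 and 2. They were close to 0 or below from group 3 on, with Hoxb8 at 0.10 as the exception. Across genes, the ratio and the paralogous group had a Pearson correlation of -0.56 and a Spearman correlation of -0.42 (n = 9). The choice of brightest probe left out probe 1 of Hoxb2 (-0.0011) and probe 2 of Hoxb9 (0.25), which run against that order. It also left out probe 2 of Hoxb3 (-0.00066) and probe 1 of Hoxb6 (-0.07). On single arrays the Pearson value lay between -0.64 and -0.45. These are descriptions over genes that share arrays and a chromosomal region, and they rest on 2 genes at 1 end.

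The scanner files also gave probes of genes around the cluster, which bear on how far the region moved together. Within 500 kb of the outermost HoxB probes there were 36 other probes, of which 1 (NAP023193-001) lay inside the cluster and was not well above background. Of the 23 tested, 0 were higher and 1 was lower, and their median ratio was 0.01. The lower one was B130006D01Rik, 469.6 kb beyond Hoxb13, at -0.36 ± 0.09 (adjusted p = 0.0309). The ratios of the tested neighbours ran from -0.36 to 0.22, so none reached the 0.41 of Hoxb1 and Hoxb2.

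Genes of groups 2 to 13 on the other 3 clusters were set beside the HoxB genes in the same fit. Of 10 such HoxA genes tested, 1 was higher and 3 were lower in Cdx4-low RNA, with a median ratio of -0.07. Of 5 HoxC genes 0 were higher and 1 was lower (median -0.06), and of 6 HoxD genes 1 was higher and 1 lower (median -0.0021). In group 2, Hoxa2 was at -0.02 (adjusted p = 0.966), beside 0.41 for Hoxb2. In group 5, Hoxa5 was higher (0.44 ± 0.10, adjusted p = 0.0126), beside -0.01 for Hoxb5.

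Among the more posterior groups the HoxB members had no call in this fit, while some paralogues did. Hoxa6 (-0.06, adjusted p = 0.836) and Hoxc9 (0.15, adjusted p = 0.481) had none. Nor did Hoxc8 (-0.10, adjusted p = 0.672) and Hoxd8 (0.03, adjusted p = 0.924), beside 0.10 for Hoxb8. Hoxc6 was lower (-0.52 ± 0.10, adjusted p = 0.00516), beside -0.16 for Hoxb6. Hoxa7 was lower (-0.41 ± 0.10, adjusted p = 0.0145), beside -0.05 for Hoxb7. In group 9, Hoxa9 was lower (-0.42, adjusted p = 0.0119) and Hoxd9 higher (0.62, adjusted p = 0.000558), beside -0.04 for Hoxb9. Hoxa11 (-0.44, adjusted p = 0.0113) and Hoxd13 (-0.65, adjusted p = 0.00069), the other 2 called genes of these clusters, have no tested HoxB counterpart. Differences between paralogues were not tested.

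**Figure D5:**
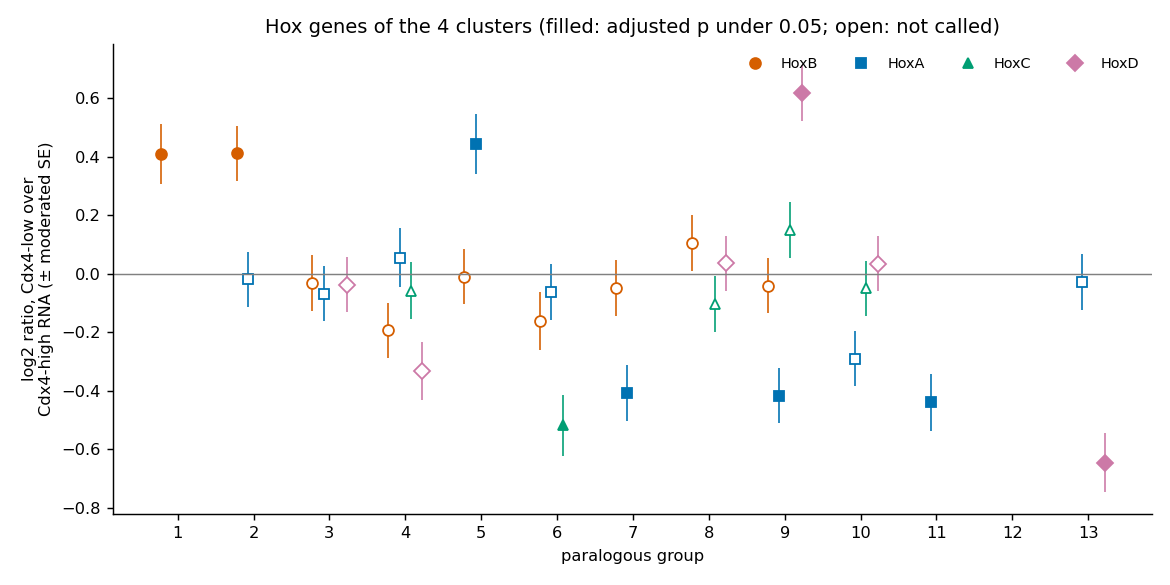
Fitted log2 ratio of Cdx4-low over Cdx4-high RNA (vertical axis, with moderated SE) of the tested HoxB genes and of the tested HoxA, HoxC and HoxD genes of groups 2 to 13, by paralogous group (horizontal axis), with 1 symbol for each cluster. Filled symbols have an adjusted p under 0.05. The called HoxB genes are in groups 1 and 2, while the called genes shown for HoxA, HoxC and HoxD are in groups 5, 6, 7, 9, 11 and 13.

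Regulators and partners of Hox proteins were read from lists chosen with earlier results known. All 3 Cdx genes passed the test, and the arrays had been aligned on Cdx4. Cdx4 was at -2.48 and Cdx2 at -0.54 ± 0.10 (adjusted p = 0.00198), while Cdx1 was higher at 0.40 ± 0.11 (adjusted p = 0.0314). Cdx1 had ratios of 0.07, 0.32, 0.57 and 0.62 on arrays 1 to 4, and like Hoxb1 its lower values were on the arrays of labelled replicate 1. Of the 9 Meis and Pbx genes, whose proteins bind DNA together with Hox proteins, 1 was higher and 0 were lower. This was Meis2, at 0.43 ± 0.10 (adjusted p = 0.0157).

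Of 8 tested retinoic acid genes, 3 were higher and 1 lower in Cdx4-low RNA. Aldh1a2, which makes retinoic acid, was at 0.47 ± 0.09 (adjusted p = 0.00556), and Cyp26a1, which degrades it, was at -0.65 ± 0.10 (adjusted p = 0.000407). Crabp2, which carries retinoic acid in the cell, was at 0.74 ± 0.10 (adjusted p = 0.000216), and the receptor gene Rarb was at 0.40 ± 0.09 (adjusted p = 0.0149). Both Rarb and Hoxb1 are known to be induced by retinoic acid. Whether these values bear on those of Hoxb1 and Hoxb2 was not tested.

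The tissue label was checked by markers of the posterior growth zone and of other cells that the dissection could hold. All 10 tail bud markers, among them T, Wnt3a, Fgf8 and Tbx6, were well above background, with 2 higher (Wnt3a and Cdx1) and 1 lower (Cyp26a1) in Cdx4-low RNA. Their summed intensity was 30784 to 35276 units in Cdx4-low RNA and 30885 to 31920.4 units in Cdx4-high RNA. Of 7 anterior neural and hindbrain markers, 5 were not above background, among them Otx2, Six3 and Egr2, and of the 2 tested 0 were called, with En2 at 0.11 (adjusted p = 0.639). Otx2, Six3 and Egr2 were thus at background, while Hoxb1 and probe 2 of Hoxb2 were well above it on all 4 arrays in both RNAs.

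Markers of several other cell types moved with the comparison. All 8 visceral endoderm markers were lower in Cdx4-low RNA (median -0.80), and their summed intensity was 32069 to 33941 units in Cdx4-low RNA, against 71635 to 85595 units in Cdx4-high RNA. The 3 tested primitive blood markers were all higher (median 1.12), with summed intensities of 4937 to 5485 units in Cdx4-low RNA and 1990.4 to 2245 units in Cdx4-high RNA, and Gata1 was not above background. Of 4 endothelial markers 1 was lower, Kdr (-0.97), with sums of 2781 to 3110.4 units in Cdx4-low RNA and 4430.7 to 4935 units in Cdx4-high RNA. Of 3 tested heart markers 0 were called, and the sums overlapped, at 2365 to 2643 units in Cdx4-low RNA and 2286 to 2711 units in Cdx4-high RNA. Of 2 tested trophoblast markers 1 was higher (Prl3d1, 0.33) and 1 lower (Prl8a2, -1.41), with sums of 773 to 807 units in Cdx4-low RNA and 991 to 1244 units in Cdx4-high RNA. The part of these cell types in the HoxB ratios was not tested.

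The fit as labelled, with mutant over wildtype taken from the labelled dyes of all 4 arrays, gave no HoxB call. Over the array it called 0.156% of 21115 probes (33), with 402 at an unadjusted p under 0.05. Of the 13 HoxB probes 0 were called by limma and 2 had an unadjusted p under 0.05. These were Hoxb4, at -0.14, and probe 2 of Hoxb9, at 0.14 (adjusted p = 1.00 for both in limma). In this fit Hoxb1 was at -0.04 and Hoxb2 at -0.02, since their labelled ratios had opposite signs on arrays 1 and 4 and on arrays 2 and 3.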

How the data were processed

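Scanner files of 4 arrays were used. The submitters' processing notes name Agilent Feature Extraction 9.5.3. Each spot has, per the file headers, the mean intensity and the median local background intensity of Cy3 and Cy5, processed intensities and a log10 ratio. The authors' deposited value table holds log10 values. Within a tolerance of 1e-04 these equalled the scanner's log ratio on arrays 1 and 3 and its negative on arrays 2 and 4, for 100% of features, with a median of 0 in each column. The table's direction is thus mutant over wildtype by the labels and carries the same conflict between arrays.

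In limma 3.58.1 (R 4.3.3), background correction used normexp (offset 50), and loess normalisation followed array by array with control spots at weight 0. Control and outlier spots (103 to 167 per array) were left out, and spots of a probe were averaged. Ratios are log2. Printed intensities are the normalised values of each channel after quantile scaling of the mean log intensity between arrays (Aquantile in limma). The scaling left the ratios unchanged. Statements on overlap of intensities across arrays rest on it. Arrays were turned by their Cdx4 ratio and paired by labelled replicate number. The pairs (n = 2) were tested with lmFit and eBayes, which set 17.0 prior degrees of freedom, and Benjamini-Hochberg adjustment ran over all tested probes. For each gene the brightest probe tested stood for it. Fits were tested on simulated data. All 13 tested HoxB probes and their 9 genes are described, with Hoxb13 and probe 1 of Hoxb8 as the 2 probes that were not tested. The other named genes are those within 500 kb of the cluster, the Cdx genes and members of lists, chiefly those that passed. Members, lists and the alignment were chosen with earlier results of these data known. Probe positions are those of the files (mm8), and upstream sequences are RefSeq's on GRCm38.p6. With 4 arrays, their number limits the precision. Some genes of the lists are not reported here.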

Additional observations from a re-analysis of the deposited data

How the results depend on the processing

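The counts of HoxB genes called were recomputed under 19 settings. The 2 higher genes remained 2 with the dyes balanced, with arrays 2 and 3 only, with a normexp offset of 16, with both channels required above background, with outlier spots kept and with an intensity trend, and became 3 in the third pairing (arrays 1 and 4, arrays 2 and 3). The count was 1 with the mean of a gene's probes. It was 0 with arrays 1 and 4 only (3 of 9 genes at an unadjusted p under 0.05), without background correction (3), with median centring (2), with the scanner's processed signals or the series table (4 in both) and with no filter on dim probes (3 of 10). It was also 0 with the ratios as labelled (1 of 9), where Hoxb1 at -0.042 and Hoxb2 at -0.016 had the opposite sign. Leaving out 1 array gave 0 to 2. The count of lower genes was 2 with the dyes balanced and in the third pairing and 0 in the other 17 settings. Over the whole array the 1240 called probes became 8187 with the dyes balanced, 10987 in the third pairing, 1891 with an intensity trend and 1948 with the processed signals or the series table. They became 736 without background correction, 702 with arrays 1 and 4 only, 581 with arrays 2 and 3 only, 33 as labelled, 16 with no filter, 0 with median centring (308 at an unadjusted p under 0.05), and 189 to 977 with 1 array left out. With median centring the median of all tested probes moved to 0.23, against which the HoxB median was 0.34, Hoxb1 0.79 and Hoxb2 0.86. With the dyes balanced, higher and lower counts were 1 and 4 in HoxA, 1 and 1 in HoxC and 1 and 2 in HoxD (groups 2 to 13), and 3 and 1 in Meis and Pbx genes, 5 and 1 in retinoic acid genes, 8 and 1 in tail bud markers and 0 and 2 in endothelial markers, with no change in the visceral endoderm, blood, heart and trophoblast counts. That count is not reported here for the anterior markers. The causes of these changes were not tested. Some settings also bring fewer arrays or a larger number of probes. The median HoxB ratio ran from -0.07 to 0.34 over 21 settings. Leaving out a labelled replicate leaves 1 value and no test, with Hoxb1 at 0.24 or 0.58 and Hoxb2 at 0.38 or 0.44. Signal over background limited Hoxb13 and probe 1 of Hoxb8, for which these arrays give no ratio.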

Other observations

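Of 18 sets of 4 aligned array ratios examined, for the 15 HoxB probes and the 3 Cdx genes, 0 had a value far enough from the other 3 to be marked by Dixon's test. Cdx2 came nearest, with -0.77 on array 1 beside -0.50, -0.45 and -0.45 on arrays 2 to 4. Among the HoxB probes, Hoxb5 came nearest, with 0.14 on array 2 beside -0.04, -0.10 and -0.05 on arrays 1, 3 and 4.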
